A study of Mus musculus with 6 samples.

Results

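The glucocorticoid receptor gene Nr3c1, the mineralocorticoid receptor gene Nr3c2 and the glucocorticoid-induced genes Fkbp5, Sgk1, Tsc22d3 and Errfi1 were followed through the mouse brain at 3 ages. The 6 genes were taken by symbol from the gene list of the deposited count tables, where they are 6 of 19465 genes, and each symbol was found once in every section. The study profiled brains of male C57BL/6J mice, cut coronally after formalin fixation and paraffin embedding, with the 10x Genomics Visium probe assay, which counts unique molecular identifiers (UMIs) per gene in barcoded spots. There were 2 sections labelled as biological replicates at each age, namely P21 (21 days), adult (12 to 15 weeks in the labels) and aged (28 months). All mice were of one strain and sex, carried no engineered allele, and received no hormone or stress treatment that the labels name. P21 and adult sections lay directly on Visium v1 slides. Aged sections were transferred with CytAssist to Visium v2 slides and counted with a later Space Ranger version. The study also describes an enhanced probe design in the v2 protocol, meant to raise the sensitivity of transcript capture. Age and platform, probes included, therefore cannot be told apart in aged versus adult for any gene.

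Corticosterone, the main glucocorticoid of rodents, crosses into cells and binds receptors held in the cytoplasm by chaperones, after which the receptor enters the nucleus and acts as a transcription factor. The mineralocorticoid receptor binds the hormone with the higher affinity and is best known in the brain from hippocampal neurons, while the glucocorticoid receptor is found in most brain cells and is occupied mainly at high hormone levels. Among their target genes, Fkbp5 encodes a co-chaperone that lowers the receptor's affinity for the hormone, Sgk1 a kinase that acts on ion channels and transporters, Tsc22d3 the leucine zipper protein GILZ that restrains inflammatory transcription factors, and Errfi1 the protein MIG6, an inhibitor of the EGF receptor.

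The receptors bind DNA as pairs at the glucocorticoid response element, an inverted repeat that was searched as GAACA, any 3 bases and then TGTTC, on both strands, in RefSeq promoter windows of 300 bases. It was held by 19 of 32851 windows (0.0578%) and by 1 of the 13 windows of the members, which belongs to Sgk1. That window is shown because Sgk1 had the largest age difference of the 6 genes. The stretch printed is the 250 bases before an annotated Sgk1 start, chr10:21993640-21993889 on the plus strand of GRCm38.p6, with the 15-base element in capitals.

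Sgk1 promoter: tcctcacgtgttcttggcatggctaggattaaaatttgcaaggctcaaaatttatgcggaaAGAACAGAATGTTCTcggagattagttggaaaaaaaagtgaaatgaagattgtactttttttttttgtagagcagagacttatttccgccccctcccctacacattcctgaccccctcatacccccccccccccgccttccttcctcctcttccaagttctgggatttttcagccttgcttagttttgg

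The element spans positions -189 to -175 from that start, 1 of 6 Sgk1 windows. The shorter half-site AGAACA, searched on both strands and contained in the element above, was in 18.97% of all windows. It was in 4 of the 13 member windows, namely 3 of Sgk1 and 1 of Tsc22d3. The further glucocorticoid-induced genes listed below had 19 windows. Of these, 0 held the full element and 2 (10.5%) the half-site. A match describes letters only, and no binding was measured.

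On GRCm38 with GENCODE vM21, Nr3c1 (ENSMUSG00000024431) lies at chr18:39410545-39519421 on the minus strand and Nr3c2 (ENSMUSG00000031618) at chr8:76899442-77245012 on the plus strand. Fkbp5 (ENSMUSG00000024222) lies at chr17:28399094-28517527 on the minus strand, Sgk1 (ENSMUSG00000019970) at chr10:21882184-21999903 on the plus strand, Tsc22d3 (ENSMUSG00000031431) at chrX:140539528-140600659 on the minus strand and Errfi1 (ENSMUSG00000028967) at chr4:150853919-150868892 on the plus strand.

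Sections held 42422997 to 106783660 UMIs after spots of low content were removed, and 20336 spots were kept, with medians of 12074.5 to 25535 UMIs per spot. Spots were clustered without the 6 genes and without any other gene of the lists below, and the clusters were named from marker panels. The zones were cortex (CTX, 4531 spots), hippocampus (HP, 1930), thalamus (TH, 3357), hypothalamus (HY, 3405), striatum (STR, 1135) and fiber tracts (FT, 2109), with the layers CA1-2, CA3 and dentate gyrus (DG) inside the HP. A spot can hold several cells of different types, so fewer cells of a type and less RNA per cell cannot be told apart. UMIs were summed per section and zone and are given as counts per 1000000 UMIs (CPM), with 57 to 4289 UMIs of a member behind each zone value and 19 to 1435 behind each layer value. Levels of different genes were not compared, since the number of probes per gene differs. Spot barcodes mark array positions, of which sections on one slide version shared 2612 to 3364 and sections on different versions 0. A difference was called at an adjusted p under 0.05 with a fold change over 1.5, where adjusted p are Benjamini-Hochberg values of edgeR's quasi-likelihood test over all genes tested. Alternative settings named below are fits without TMM scaling factors, without a filter on low genes, with sections thinned to equal depth, with DESeq2, with core spots (all neighbours in the same zone) and with each spot's zone taken from its highest marker panel.

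In whole sections Sgk1 and Fkbp5 were the members called higher in aged versus adult and Nr3c2 was the member called lower in P21 versus adult. These are 2 of 6 members in aged versus adult, against 8.99% of all genes tested, and 1 of 6 in P21 versus adult, against 5.12%. Sgk1 was at 46.6 and 43.8 CPM in P21, 59.3 and 53.4 in adult and 125 and 124 in aged sections. Fkbp5 was at 43.9 and 41.0 CPM in P21, 40.0 and 39.4 in adult and 71.9 and 75.9 in aged sections. For both genes the aged sections stood clear above the other 4. Nr3c2 was at 59.9 and 59.6 CPM in P21, below all adult and aged values, which ran from 87.2 to 101.2. Nr3c1 was highest in the adult sections, at 131 and 139 CPM, against 105 to 107 at P21 and 96.9 to 98.2 in aged sections.

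**Figure D1:**
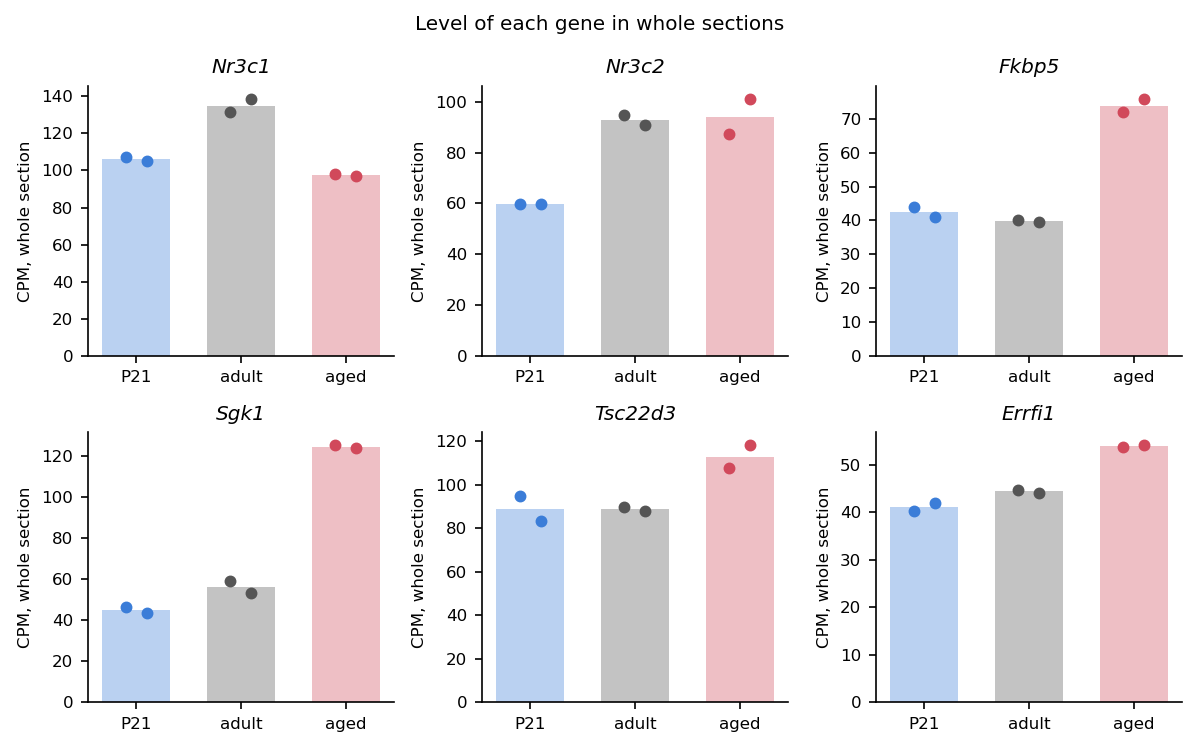
CPM of the 6 genes in whole sections, one point per section, with age on the x axis and a separate linear y axis from 0 for each gene. The aged sections stand above the others for Sgk1 (125 and 124 CPM) and Fkbp5 (71.9 and 75.9 CPM), the P21 sections stand below for Nr3c2 (59.9 and 59.6 CPM), and the adult sections stand above for Nr3c1 (131 and 139 CPM).

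The first comparison asked where in the brain each gene was most abundant. Each zone was set against the mean of the other 5 in 1 fit of all sections with the section as a block, and 8 of the 36 gene and zone pairs of the members were called, against 15.9% of all pairs. Nr3c2 was by far the most zone-bound of the 6. It was at 203 and 210 CPM in the HP of P21, 286 and 275 of adult and 341 and 396 of aged sections, while the other 5 zones lay between 32.4 and 98.9 CPM in all sections. The HP was therefore above every other zone in all 6 sections, 4.98-fold above their mean (log2 difference 2.32 ± 0.06 SE, adjusted p = 5.22e-23). The STR came next, above the HY (0.50 ± 0.09 SE, adjusted p = 4.68e-05). Neighbours in the remaining order of HY, TH, FT and CTX could not be separated. The CTX was lower than the mean of the others by the rule (-0.75 ± 0.07 SE, adjusted p = 3.79e-10). The HP held 35.2 to 41.7% of all Nr3c2 UMIs of a section while holding 9.73 to 13.8% of all UMIs.

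Nr3c1 was more even. Its level was highest in the TH in all 6 sections, with 135 and 127.6 CPM at P21, 187 and 206 in adult and 135 and 136 in aged sections, 1.51-fold above the mean of the other zones (0.59 ± 0.07 SE, adjusted p = 7.26e-09). This call sat at the fold threshold and was lost when either adult or either aged section was left out, with values of 0.56 to 0.58, or without TMM factors (0.56). CTX and FT followed and did not differ from each other, and STR, HY and HP formed the lower end, also without separation. In adult sections the HP was at 116 and 110 CPM, next to 136 and 138 in the CTX. The HP thus had the highest Nr3c2 level of the 6 zones and, averaged over the ages, one of the lowest Nr3c1 levels. That Nr3c1 average includes the aged HP, at 54.8 and 69.2 CPM. In adult sections the mean was 113 CPM in the HP, 110 in the STR and 105 in the HY.

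Of the target genes, Fkbp5 was higher in the HP than in the mean of the other zones (0.82 ± 0.09 SE, adjusted p = 4.12e-09), at 65.3 to 76.2 CPM in P21 and adult sections where the CTX was at 28.4 to 37.2. Sgk1 was higher in the FT (1.19 ± 0.18 SE, adjusted p = 1.66e-06), a value that averages ages with very different FT levels. It was lower in the HY (-0.68 ± 0.21 SE, adjusted p = 0.006), and this call was lost without P21 replicate 1 (-0.58) or without TMM factors (-0.56). Tsc22d3 was higher in the TH (0.84 ± 0.06 SE, adjusted p = 4.51e-12), where it lay between 114 and 197 CPM, and lower in the HP (-0.65 ± 0.07 SE, adjusted p = 1.69e-08), where it lay between 54.4 and 72.3 CPM. The HP call of Tsc22d3 was lost without aged replicate 2 (-0.57). Errfi1 had its highest levels in HP and FT, which did not differ from each other and did not pass the fold threshold.

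**Figure D2:**
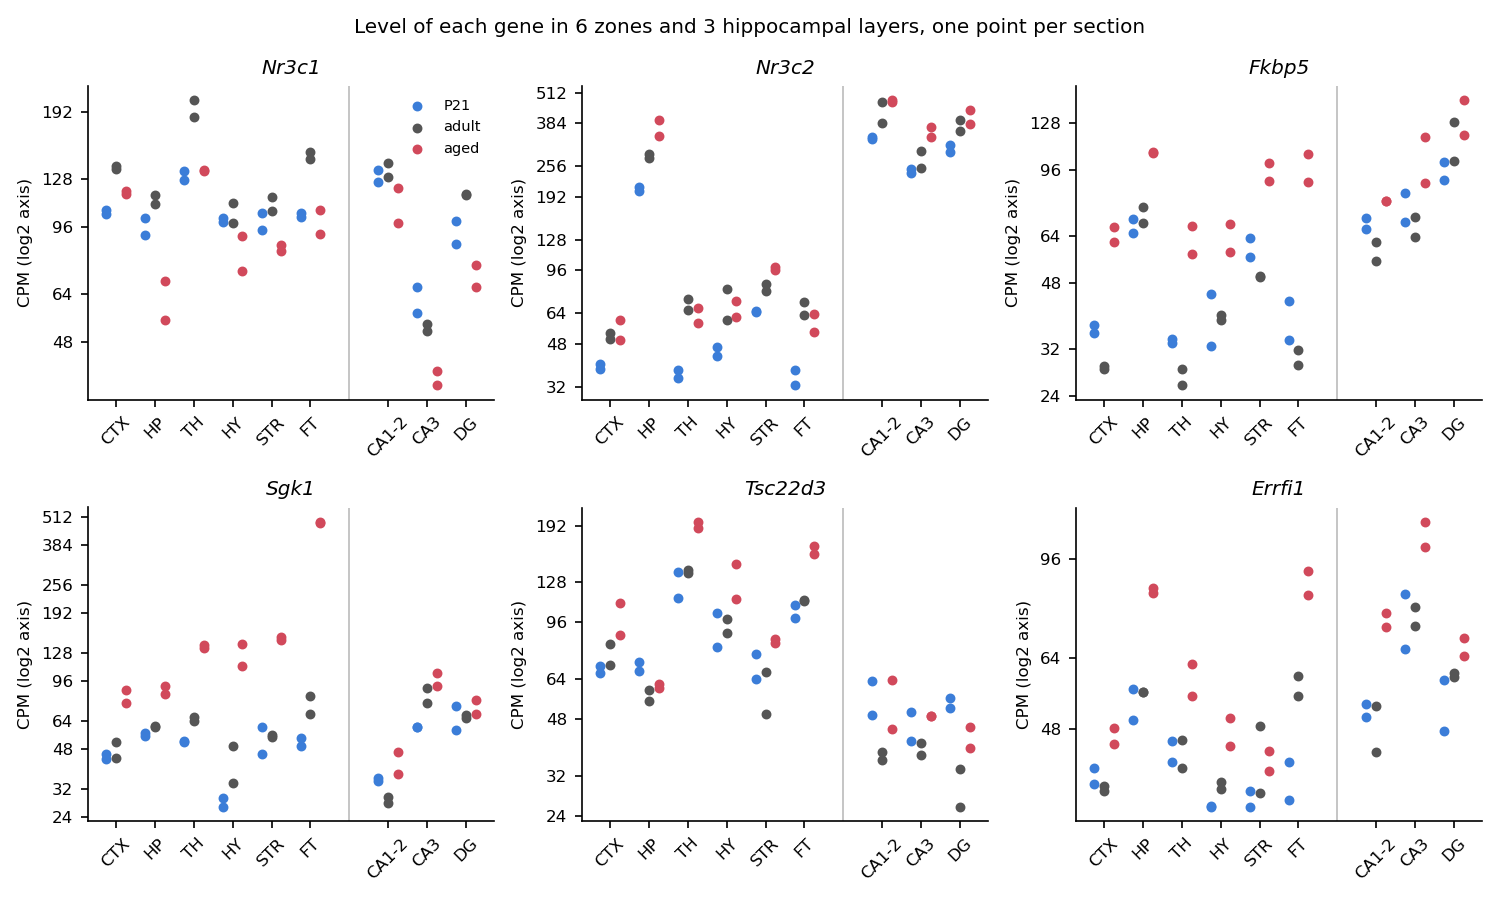
CPM of the 6 genes by zone and hippocampal layer on log2 axes, one point per section, coloured by age. Nr3c2 peaks in the HP and its layers at every age (203 to 396 CPM in the HP), Tsc22d3 and Nr3c1 peak in the TH, and the aged FT points of Sgk1 (487 and 479 CPM) lie far above the P21 and adult FT points (49.8 to 82.4 CPM).

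Within the hippocampus Nr3c1, Sgk1 and Errfi1 differed between layers. Each layer was set against the mean of the other 2, and 5 of the 18 member pairs were called, against 17.2% of all pairs. Nr3c1 was higher in CA1-2 (0.91 ± 0.08 SE, adjusted p = 4.21e-09) and lower in CA3 (-0.99 ± 0.08 SE, adjusted p = 1.71e-09), and in adult sections it was at 142 and 130 CPM in CA1-2 and 51.1 and 53.5 in CA3. Sgk1 ran the other way, lower in CA1-2 (-1.07 ± 0.11 SE, adjusted p = 1.43e-07) and higher in CA3 (0.87 ± 0.09 SE, adjusted p = 1.12e-07). Its adult values were 29.6 and 27.8 CPM in CA1-2, 76.6 and 89.5 in CA3 and 68.2 and 66.1 in DG. Errfi1 was higher in CA3 (0.67 ± 0.07 SE, adjusted p = 1.52e-07), at 66.5 to 112 CPM over the 6 sections, a call lost without TMM factors (0.53). Nr3c2 was high in all 3 layers, at 329 to 476 CPM in CA1-2, 240 to 370 in CA3 and 293 to 435 in DG, and no layer passed the fold threshold.

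The P21 versus adult comparison asked how the genes differed between the weanling and the mature brain. Nr3c2 was lower at P21 in TH, HY and FT, and these 3 pairs were the ones called of 36, against 6.12% of all pairs (2.27% in the lower direction). In the TH Nr3c2 was at 37.4 and 34.6 CPM at P21 and 73.3 and 65.9 in adult sections (-0.92 ± 0.10 SE, adjusted p = 0.000196). In the FT it was at 37.5 and 32.4 CPM at P21 and 70.7 and 62.5 in adult sections (-0.83 ± 0.12 SE, adjusted p = 2.71e-05). The P21 and adult sections did not overlap in either zone.

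In the HY Nr3c2 was at 42.7 and 46.6 CPM at P21 and 80.6 and 60.1 in adult sections (-0.67 ± 0.14 SE, adjusted p = 0.0241). That call was lost without P21 replicate 1 (-0.61), P21 replicate 2 (-0.73) or adult replicate 1 (-0.45), with no filter (-0.67) or with core spots (-0.60). The adult HY sections also differed in content, since Avp, the vasopressin gene of the supraoptic and paraventricular nuclei, was at 9.61 CPM in one and 664 in the other, and 2.67 and 1.88 at P21. The part of this difference in the result was not tested. In CTX (-0.42 ± 0.10 SE, adjusted p = 0.0104) and HP (-0.46 ± 0.09 SE, adjusted p = 0.00517) Nr3c2 was also lower at P21, by less than the fold threshold, and in the STR its log2 difference was -0.29 ± 0.12 (SE, adjusted p = 0.163).

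At an adjusted p under 0.05 with no fold threshold, 2 pairs were higher and 11 lower at P21, against 7.94% and 7.24% of all pairs. Nr3c1 was among the lower ones in CTX (-0.38 ± 0.08 SE), TH (-0.56 ± 0.08 SE) and FT (-0.44 ± 0.09 SE), with adjusted p of 0.00402, 0.00115 and 0.000796. Sgk1 was among them in TH (-0.30 ± 0.08 SE, adjusted p = 0.0264) and FT (-0.45 ± 0.11 SE, adjusted p = 0.00358), and Errfi1 in FT (-0.46 ± 0.11 SE, adjusted p = 0.00448). Sgk1 differed more in the HY (-0.60 ± 0.18 SE) but did not pass there (adjusted p = 0.076). That HY value was called in DESeq2 (-0.60) and without adult replicate 2 (-0.84) or either aged section (-0.60 each). Nr3c1 in TH was called without P21 replicate 1 (-0.60) or adult replicate 1 (-0.65). In FT with core spots Sgk1 (-0.64) and Errfi1 (-0.69) were called. So were Sgk1 without adult replicate 2 (-0.61) and Errfi1 without P21 replicate 1 (-0.62). The 2 higher pairs were both Fkbp5, in CTX (0.35 ± 0.10 SE, adjusted p = 0.0215) and FT (0.45 ± 0.13 SE, adjusted p = 0.0183). In the layers Tsc22d3 was called higher at P21 in DG, where 9.65% of genes were called. It was at 51.9 and 55.8 CPM at P21 and 25.6 and 33.6 in adult sections (0.81 ± 0.20 SE, adjusted p = 0.0155), and the call was lost without P21 replicate 1 (0.86), P21 replicate 2 (0.76) or adult replicate 1 (0.61), or in DESeq2 (0.81).

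Cell type content differed between these ages as well. The 8 oligodendrocyte markers summed to 25694 to 26846 CPM in whole P21 sections and 12526 to 12902 in adult sections, and in the FT to 84809 to 98401 CPM at P21 and 42649 to 44503 in adult sections. None of them was at 0 in any section. The 3 erythrocyte markers tested were also called higher at P21 in every zone, against 3.85% of all pairs. Their median log2 differences ran from 2.45 in the HY to 3.83 in the STR. The part of these shifts in the lower Nr3c2 level was not tested.

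The aged versus adult comparison asked what differed between the mature and the old brain, with the limit of platform given above. Of the 36 member pairs 13 rose and 1 fell, against 7.67% and 7.14% of all pairs. The members were chosen with earlier results of these data known, so these shares are descriptions. Fkbp5 rose in all 6 zones, Sgk1 in 5, and Errfi1 in 2, while the fall was of Nr3c1 in the HP. With no fold threshold 22 pairs were higher and 5 lower, against 18% and 18.8% of all pairs.

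Sgk1 rose most, and most in the fiber tracts. Its FT level was 54.1 and 49.8 CPM at P21, 82.4 and 68.6 in adult and 487 and 479 in aged sections, so that aged sections were 6.48-fold above adult ones (2.70 ± 0.09 SE, adjusted p = 2.82e-14). Both aged sections lay close together and far above the other 4. In the FT 12.7% of all genes were called higher. The HY followed, with 26.7 and 29.4 CPM at P21, 49.8 and 34.1 in adult and 112 and 140 in aged sections (1.56 ± 0.16 SE, adjusted p = 0.000561). In the STR Sgk1 was at 60.6 and 45.7 CPM at P21, 54.4 and 55.8 in adult and 150 and 146 in aged sections (1.43 ± 0.12 SE, adjusted p = 1.19e-07). In both zones the aged sections were above the other 4. The HY sections differed in Avp, at 9.61 and 664 CPM in adult and 1911 and 3.76 in aged sections. The part of this difference in the Sgk1 value was not tested.

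Sgk1 also rose in the TH, from 66.8 and 63.8 to 139 and 134 CPM (1.10 ± 0.08 SE, adjusted p = 5.46e-06), and in the CTX, from 51.6 and 44.1 to 76.8 and 87.96 CPM (0.77 ± 0.10 SE, adjusted p = 4.39e-05). In the HP, from 60.0 and 61.0 to 91.4 and 84.3 CPM, the change of 1.49-fold stayed under the fold threshold (0.58 ± 0.10 SE, adjusted p = 0.00141). It passed without adult replicate 2 (0.60) or without aged replicate 2 (0.67). In the 3 hippocampal layers, made up of cell bodies of pyramidal and granule neurons, no Sgk1 difference was called (log2 differences 0.11 to 0.53). In the remaining hippocampal spots, the neuropil, adult sections had 57.5 and 50.5 CPM and aged sections 127.7 and 121. In zones that were not tested, the reticular thalamus had 59.6 and 52.7 CPM in adult and 215 and 195 in aged sections, and the ventricular system 132 and 161 against 324 and 382. Smaller differences were seen in the meninges, with 62.6 and 68.4 against 78.4 and 81.8, and in spots that met no panel, with 34.9 and 32.9 against 53.2 and 51.1. The habenula had 80.2 (from 3 spots) and 28.0 CPM in adult and 96.2 and 79.1 in aged sections.

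The share of all Sgk1 UMIs of a section that came from the FT was 9.71% (8.83 to 10.7) and 9.21% (7.93 to 10.6) at P21, 15.3% (14.02 to 16.6) and 15.0% (13.7 to 16.4) in adult and 23.9% (23.1 to 24.7) and 19.4% (18.7 to 20.1) in aged sections. The brackets are exact Clopper-Pearson 95% intervals and cover counting error only. In aged sections the FT held 11.7% and 10.6% of spots and 6.14% and 5.03% of UMIs. The deposited Moran's I, a score of how strongly neighbouring spots share a gene's level, was 0.084 and 0.035 for Sgk1 at P21, 0.078 and 0.065 in adult and 0.434 and 0.470 in aged sections. For Nr3c2 it lay between 0.147 and 0.277 in all 6 sections. The medians of all genes listed were also higher in aged sections, at 0.0226 and 0.0295, than in P21 and adult sections, at 0.0113 to 0.0166.

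**Figure D3:**
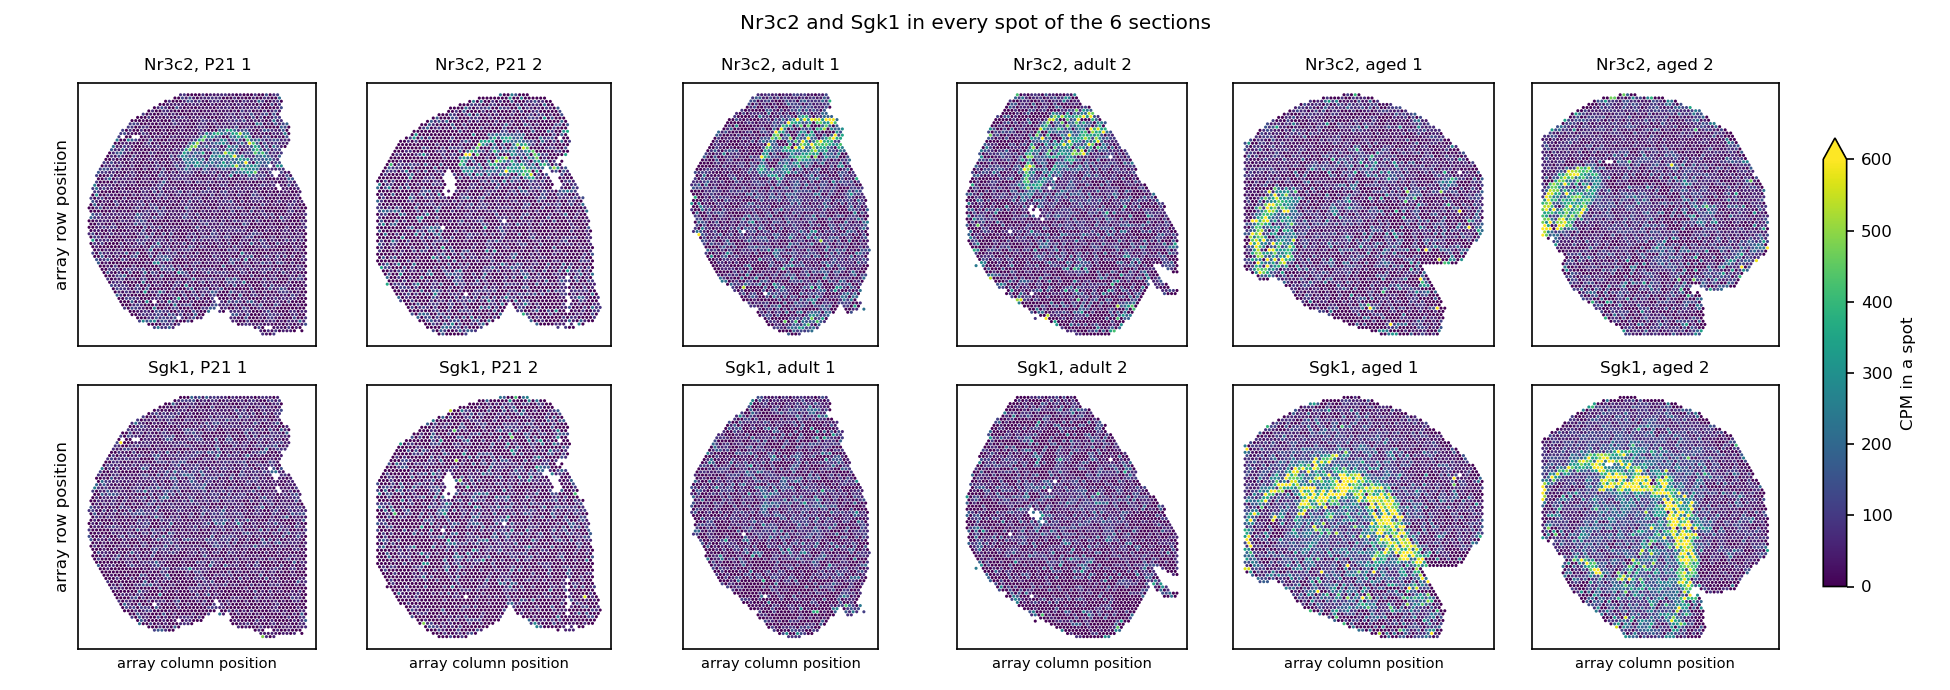
CPM of Nr3c2 (top row) and Sgk1 (bottom row) in every spot of the 6 sections at their array positions, on one colour scale capped at 600 CPM. Nr3c2 marks the hippocampus in every section, while Sgk1 marks the fiber tracts in the aged sections (487 and 479 CPM summed over FT spots) and lies between 49.8 and 82.4 CPM in the FT of P21 and adult sections.

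The FT zone joined 2 clusters, one led by C4b, Klk6 and Apod (1307 spots) and one led by Thbs4, Opalin and Mag (802 spots), and aged sections held more of the first (344 and 315 spots against 134 to 198) and fewer of the second (86 and 62 against 121 to 190). Taken alone, the first gave a Sgk1 change of 2.91 ± 0.11 (SE, adjusted p = 2.08e-13) and the second one of 2.23 ± 0.11 (SE, adjusted p = 1.37e-21). Their adult sections had 77.2 and 69.3 CPM and 85.5 and 67.8 CPM of Sgk1, their aged sections 535 and 516 CPM and 355 and 368 CPM. The rise was therefore present in both clusters.

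Markers of other cell types moved with it. In the FT the 6 microglia markers summed to 619 to 692 CPM in adult and 1885 to 1947 in aged sections with 5 called higher, and the 7 astrocyte markers to 2663 to 2763 and 3258 to 3434 CPM with 3 called higher. The 6 pan-neuronal markers summed to 4659 to 4966 CPM in adult and 2328 to 2333 in aged sections with 4 called lower. The 8 oligodendrocyte markers summed to 42649 to 44503 CPM in adult and 49596 to 50612 in aged sections with 1 called higher. Of all genes tested in the FT 12.7% were called higher and 14.3% lower. None of these markers was at 0 in the FT of any section, and their part in the Sgk1 result was not tested.

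Fkbp5 rose in every zone. In the FT it was at 43.0 and 33.8 CPM at P21, 31.7 and 29.1 in adult and 88.9 and 106 in aged sections, a 3.25-fold rise (1.70 ± 0.12 SE, adjusted p = 6.91e-10). In the TH it went from 28.3 and 25.6 to 57.4 and 67.9 CPM (1.25 ± 0.11 SE, adjusted p = 1.83e-05), and in the CTX from 28.9 and 28.4 to 61.8 and 67.7 CPM (1.16 ± 0.09 SE, adjusted p = 7.42e-07). The aged sections were above all P21 and adult sections in these zones. In the STR the change was 0.93 ± 0.12 (SE, adjusted p = 1.37e-05).

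The 2 smallest Fkbp5 changes were less firm. In the HP, where the gene was already highest in adult sections, it went from 69.2 and 76.2 to 106 and 107 CPM (0.59 ± 0.10 SE, adjusted p = 0.001), just over the fold threshold, and the call was lost without adult replicate 1 (0.50) or aged replicate 1 (0.57), and also without TMM factors (0.55), with no filter (0.57), with core spots (0.53) and with zones by marker panel (0.45). In the HY it went from 39.5 and 38.3 to 68.7 and 58.0 CPM (0.66 ± 0.16 SE, adjusted p = 0.0155), and the call was lost without adult replicate 1 (0.68), adult replicate 2 (0.65) or aged replicate 1 (0.52), or with no filter (0.65). The HY sections differed in Avp again, with 1911 and 3.76 CPM in the aged pair. Of the layers, CA3 was called (0.60 ± 0.15 SE, adjusted p = 0.00369, with 8.59% of genes called) and lost the call without adult replicate 1 (0.53) or aged replicate 1 (0.38), in DESeq2 (0.60) or with a replicate block (0.58), while CA1-2 (0.45 ± 0.18 SE) and DG (0.22 ± 0.15 SE) were not called.

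Errfi1 rose in the HP, from 55.7 and 55.8 to 85.2 and 83.6 CPM (0.64 ± 0.10 SE, adjusted p = 0.000807), and in the FT, from 55.0 and 59.5 to 83.0 and 91.3 CPM (0.62 ± 0.10 SE, adjusted p = 3.65e-05). Aged sections lay above all others in both zones. The HP call was lost with zones by marker panel (0.48). The FT call was lost with no filter, core spots or zones by marker panel (0.54 each) and without P21 replicate 1 (0.58), adult replicate 1 (0.52) or aged replicate 2 (0.55), all close to the fold threshold. In the 2 FT clusters taken alone it was 0.44 ± 0.14 (SE, not called) and 0.86 ± 0.14 (SE, called). In the STR Errfi1 was at 48.6 and 36.9 CPM in adult and 40.4 and 43.9 in aged sections, a log2 difference of -0.03 ± 0.15 (SE). In CA1-2, where 7.31% of genes were called, it went from 52.8 and 43.7 to 77.1 and 72.7 CPM (0.64 ± 0.19 SE, adjusted p = 0.0301), and that call was lost without any 1 of the adult or aged sections (0.51 to 0.77) or at equal depth (0.61).

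Tsc22d3 passed the fold threshold in no zone in aged versus adult. Its log2 differences ran from 0.14 ± 0.10 (SE) in the HP to 0.54 ± 0.08 (SE) in the FT, and 5 zones had an adjusted p under 0.05. In the FT it was at 113 and 112 CPM in adult and 156 and 165 in aged sections (adjusted p = 2.01e-05). In the STR, where adult sections had 67.0 and 49.6 CPM and aged sections 82.6 and 84.9, it was called without adult replicate 1 (0.75). In the FT it was called with core spots (0.70) and in the first FT cluster alone (0.73 ± 0.10 SE, adjusted p = 9.58e-06), and the second cluster gave 0.07 ± 0.12 (SE).

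Nr3c1 fell in the HP, from 116 and 110 to 54.8 and 69.2 CPM (-0.83 ± 0.11 SE, adjusted p = 0.000226), and both aged sections were below all P21 and adult sections. In the other zones its log2 differences ran from -0.23 ± 0.08 (SE) in the CTX to -0.56 ± 0.09 (SE) in the FT and none passed the fold threshold. The FT value passed it without P21 replicate 1 (-0.60), P21 replicate 2 (-0.59), adult replicate 1 (-0.63) or aged replicate 2 (-0.67), with no filter (-0.64) or with zones by marker panel (-0.59), and the TH value of -0.50 ± 0.08 (SE) passed it without adult replicate 1 (-0.60). The whole-section value of -0.58 ± 0.07 (SE) lay just under the threshold and passed it without P21 replicate 2 (-0.59), adult replicate 1 (-0.63) or aged replicate 1 (-0.60), or with no filter (-0.59). In DG, where 6.63% of genes were called, Nr3c1 fell from 117 and 117 to 66.7 and 76.4 CPM (-0.69 ± 0.14 SE, adjusted p = 0.00681), a call lost without either adult section (-0.71 and -0.70). CA1-2 (-0.27 ± 0.15 SE, adjusted p = 0.261) and CA3 (-0.44 ± 0.17 SE, adjusted p = 0.0605) were not called. The mix of HP spots differed too, with 236 and 282 neuropil spots in adult and 126 and 109 in aged sections, and 34 and 52 CA3 spots, where Nr3c1 was lowest, in adult and 84 and 47 in aged sections. In the neuropil spots themselves Nr3c1 was at 141 and 138 CPM in adult and 63.8 and 63.2 in aged sections. This neuropil difference and the part of the spot mix in the HP value were not tested.

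Nr3c2 was not called in any zone in aged versus adult. In the HP it was at 286 and 275 CPM in adult and 341 and 396 in aged sections (0.43 ± 0.09 SE, adjusted p = 0.00344), under the fold threshold. The neuropil had 156 and 161 CPM in adult and 238 and 291 in aged sections, next to 467 and 383.7 against 468 and 476 in CA1-2. In the HP the 8 oligodendrocyte markers, all called lower in aged versus adult, summed to 6006 to 6889 CPM in adult and 2859 to 3362 in aged sections, and none was at 0. Of all genes tested in the HP 6.05% were called lower. The part of these markers in the receptor values was not tested. The hippocampus lay at the edge of the capture area in both aged sections.

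**Figure D4:**
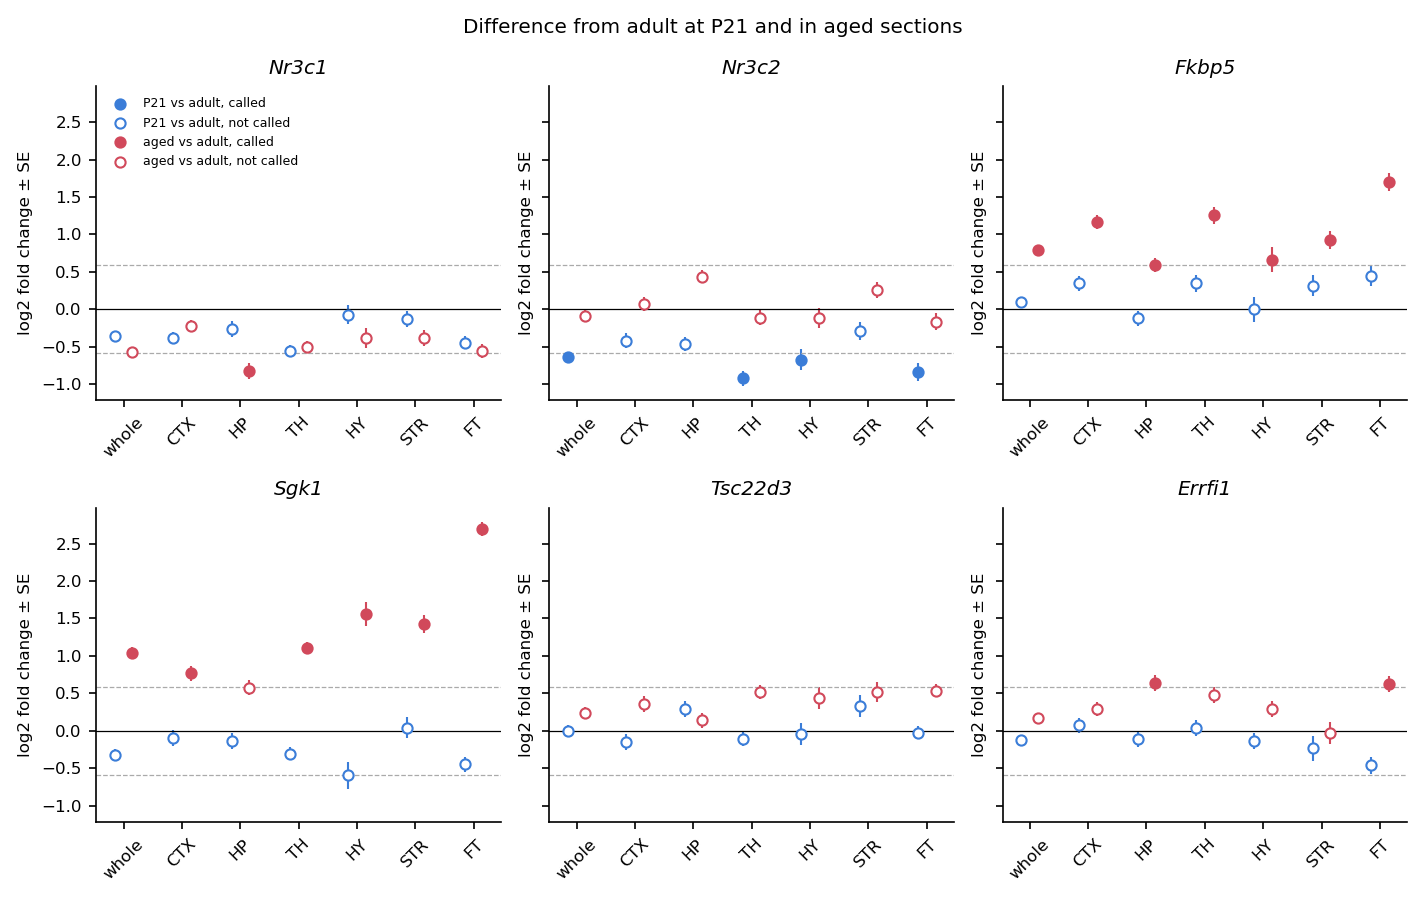
Log2 fold change from adult of the 6 genes in whole sections and by zone, for P21 and aged sections, with bars of 1 SE and filled points for called differences. Sgk1 in the FT (2.70) stands apart from all other points, Fkbp5 is filled for aged sections in all 6 zones, and Nr3c2 is filled for P21 in TH, HY and FT.

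Whether the age difference itself differed between the 6 zones was tested as an interaction in the fit with the section as a block. In aged versus adult it did for 5 of the 6 genes, against 47.8% of all genes. These were Sgk1 (adjusted p = 5.18e-10), Fkbp5 (adjusted p = 4.22e-05), Nr3c2 (adjusted p = 0.000217), Errfi1 (adjusted p = 0.00334) and Nr3c1 (adjusted p = 0.00985), and Tsc22d3 did not pass (adjusted p = 0.166). Without adult replicate 1 the count was 3. In P21 versus adult it did for Nr3c2 (adjusted p = 0.00462) alone of the 6, against 13.6% of all genes. That count was 0 without P21 replicate 1, P21 replicate 2 or adult replicate 1, and 6 without either aged section.

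Other genes of the pathway were taken as lists. The list of further glucocorticoid-induced genes had 20 genes, of which 19 are in the files and 17 were tested. It was chosen with earlier results of these data known, so the counts set against all genes are descriptions. In aged versus adult 77 of their 102 gene and zone pairs rose and 0 fell, against 7.67% and 7.14% of all pairs. All 17 rose in the FT, 16 in the TH, 12 in CTX and STR and 10 in HP and HY, next to 12.7% of all genes in the FT, 6.82% in the TH, 6.24% in the CTX, 8.14% in the STR, 5.71% in the HP and 6.49% in the HY. The median log2 difference in the FT was 1.70, next to -0.04 over all genes tested. The count of pairs was 65 without adult replicate 2 and 73 to 80 without any other 1 section.

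Arrdc2, Pdk4 and Hif3a were among the genes that rose in all 6 zones. Arrdc2, an arrestin-domain gene, was in the FT at 23.7 and 25.9 CPM at P21, 41.8 and 38.3 in adult and 250 and 216 in aged sections (2.56 ± 0.10 SE, adjusted p = 2.01e-13). Pdk4, a kinase that slows the entry of pyruvate into the citric acid cycle, was there at 4.91 and 7.87 CPM at P21, 13.2 and 10.2 in adult and 83.6 and 85.9 in aged sections (2.88 ± 0.15 SE, adjusted p = 5.87e-12). Hif3a, a member of the hypoxia-inducible factor family, was at 7.95 and 5.54 CPM at P21, 5.03 and 4.35 in adult and 39.9 and 64.3 in aged sections (3.49 ± 0.23 SE, adjusted p = 2.07e-10). For all 3 genes the aged sections stood apart from the other 4, as they did for Sgk1.

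In P21 versus adult the same list did not move one way, with 8 of 99 pairs higher and 9 lower, against 3.85% and 2.27% of all pairs. Sult1a1, a sulfotransferase, was higher at P21 in CTX, HP and STR, and Ddit4, an inhibitor of mTOR signalling, in TH, STR and FT. Ddit4 was in the FT at 152 and 162 CPM at P21, 81.3 and 67.7 in adult and 152 and 144 in aged sections, above adult at both other ages. Dusp1, a phosphatase of MAP kinases, was lower at P21 in CTX (-0.93 ± 0.14 SE, adjusted p = 0.000283) and TH (-0.74 ± 0.16 SE, adjusted p = 0.00884). Dusp1 is also an immediate early gene. The 9 immediate early markers summed in whole sections to 197 to 199 CPM at P21, 280 to 437 in adult and 1222 to 1353 in aged sections. Of the 8 markers tested 5 were called higher in aged versus adult, against 3.72% of all genes. None of the 9 was at 0 in any section, and their part in the list's counts was not tested.

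**Figure D5:**
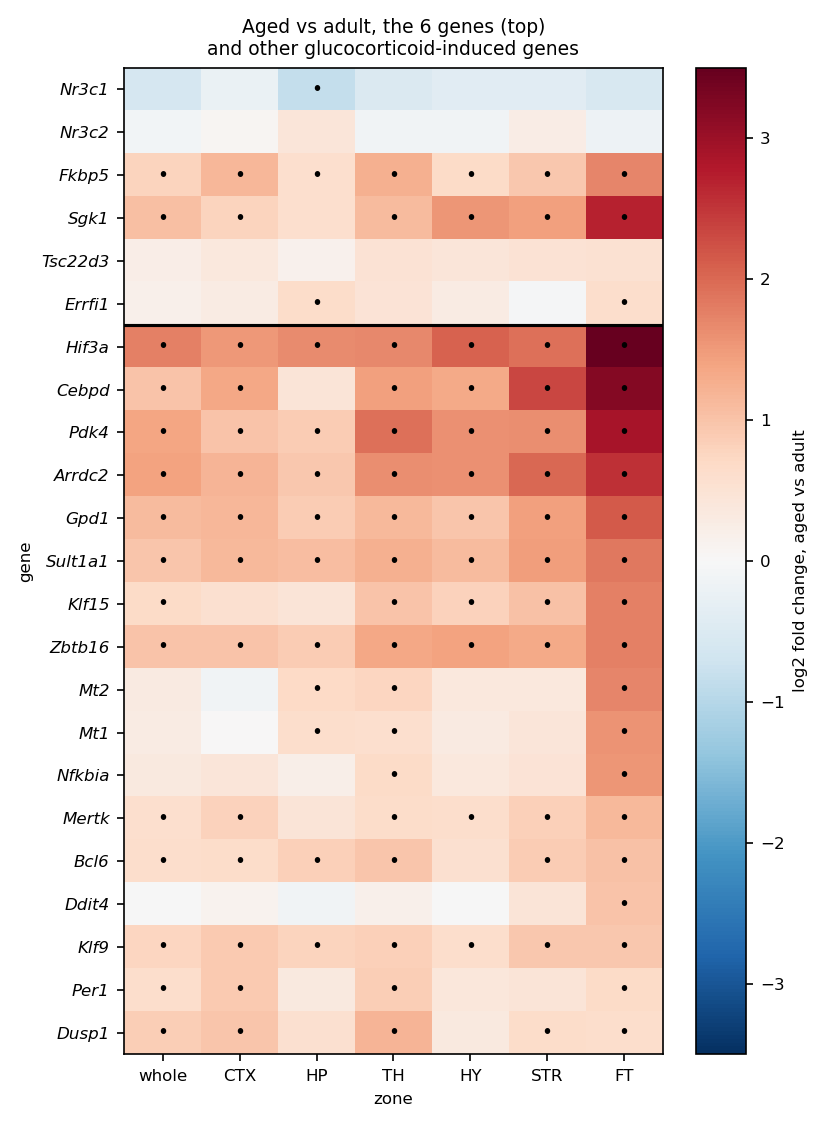
Log2 fold change in aged versus adult by zone, for the 6 genes above the line and the other glucocorticoid-induced genes below it, on a colour scale centred on 0, with a dot where the difference was called and whole sections in the first column. The FT column is the strongest, for example Hif3a at 3.49, Pdk4 at 2.88, Sgk1 at 2.70 and Arrdc2 at 2.56, while Nr3c1 is the member below 0 in every zone.

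The chaperone and coregulator lists had few calls. Of all gene and zone pairs 6.12% were called in P21 versus adult and 14.8% in aged versus adult. Each call named here was 1 of the 8 chaperones or 10 coregulators tested in its zone. Of 12 receptor chaperones and co-chaperones 8 were in the files, and 0 were called at P21 in any zone by edgeR. In aged versus adult Dnajb1, an HSP40 chaperone, was called in HY (0.76 ± 0.20 SE, adjusted p = 0.0217) and FT (0.996 ± 0.181 SE, adjusted p = 0.000111), and its aged FT sections differed, at 135 and 71.7 CPM. Of the coregulators, Nrip1 was called lower at P21 in the HY (-0.73 ± 0.13 SE, adjusted p = 0.0139), where P21 sections had 24.3 and 21.5 CPM and adult sections 40.2 and 35.7. In aged versus adult the coactivator Ncoa3 was called higher in the FT (0.59 ± 0.16 SE, adjusted p = 0.00367), where aged sections had 34.5 and 51.8 CPM and adult sections 29.0 and 29.4.

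Of 6 genes of steroid metabolism and export 4 were tested. Of all gene and zone pairs 3.85% were called higher and 2.27% lower at P21, and 7.14% lower in aged versus adult. Srd5a1, the steroid 5-alpha-reductase that converts corticosterone, progesterone and testosterone, was higher at P21 in all 6 zones, by 0.99 to 1.55 on the log2 scale. In the FT it was at 81.5 and 97.6 CPM at P21, 31.4 and 36.8 in adult and 43.1 and 41.7 in aged sections (1.45 ± 0.12 SE, adjusted p = 1.44e-08). The P21 sections stood above the other 4, and no aged difference of Srd5a1 was called. Hsd11b1, which regenerates active corticosterone, was called lower at P21 in the TH (-0.86 ± 0.17 SE, adjusted p = 0.00588) and lower in aged sections in the STR (-0.83 ± 0.21 SE, adjusted p = 0.00595).

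Of 7 stress axis genes 3 were tested. Of all gene and zone pairs 7.67% were called higher and 7.14% lower in aged versus adult, and 2.27% lower at P21. Crhr1, the receptor of corticotropin-releasing hormone, was lower in aged versus adult in 5 of 6 zones. In the CTX it was at 59.4 and 61.3 CPM at P21, 58.0 and 51.3 in adult and 36.8 and 35.8 in aged sections (-0.61 ± 0.09 SE, adjusted p = 0.000183), and the aged sections were below the other 4. Crhbp, which encodes the binding protein of that hormone, was higher in CTX, HY and FT and lower in TH and STR in aged versus adult. Avp was called lower in TH, STR and FT in both comparisons, but the adult sections differed widely, at 3.20 and 79.6 CPM for TH, 9.19 and 222 CPM for FT and 3.24 and 32.8 CPM for STR. The aged STR values of 6.58 and 4.40 CPM were above the first adult section, so that the aged direction there rests on adult replicate 2, and in TH and FT 1 of the aged sections (3.63 and 17.5 CPM) was also above it.

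By Pearson r of log2(CPM + 1) over the 36 section and zone values, among 10256 genes of at least 10 CPM on average, the gene most like Nr3c2 was Sipa1l3 (r = 0.982), followed by Zfp189 (0.928) and Trim2 (0.902). Sgk1 was most like Htra1 (0.952), Arrdc2 (0.937) and the microglial receptor gene Trem2 (0.931). Tsc22d3 was most like Retreg1 (0.935), Fads6 (0.910) and Nacc2 (0.907), and Fkbp5 most like Mta2 (0.898), Tor1b (0.860) and Slc25a29 (0.856). Errfi1 was most like Dock9 (0.894), Gpnmb (0.853) and Ctsc (0.843). Nr3c1 had the loosest matches, with Plxdc1 (0.834), Mindy2 (0.815) and Rorb (0.815). The 36 values share 6 libraries, so these correlations are descriptions.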

How the data were processed

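Spots over tissue were counted in 6 FFPE coronal sections (2 per age). The authors deposited raw UMI counts of every gene in each spot, from Space Ranger on the mm10 build. File headers name version 2.0.0 for P21 and adult and 3.1.1 for aged sections, whereas the submitters' processing notes name 2.1.0. The deposited Moran's I scores were made by Space Ranger from the same counts. Images and the p-values and mean signals beside the deposited scores were not used. The members and gene lists were chosen with earlier results of these data known.

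Spots with at least 250 genes and 500 UMIs were kept, as in the study, which removed 1 to 4 spots per section. Log-normalized values of 3000 variable genes, standardized within sections and without 56 pathway genes, were reduced to 10 principal components, joined to 20 neighbours and clustered by Leiden (leidenalg 0.10.2, resolution 0.4; hippocampal spots again at 0.1). A cluster took the name of the marker panel that scored at least 0.2 and led the next by 0.2 with at least 3 genes raised. Clusters that met no panel (2065 spots, 10.2%) entered no zone. The highest marker panel of single spots matched the zone for 80.3% of spots.

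UMIs were summed per section and zone and tested with edgeR 4.0.16 (TMM, glmQLFit, glmQLFTest) in R 4.3.3, with age as the only term and all 6 sections in each fit. Genes were tested when kept by filterByExpr, present in over 10% of the zone's spots at either age and in at least 10% of all spots. All 6 members passed in every zone and layer. The SE was taken as the log2 change over the root of its F statistic. CPM are plain, and fold changes include TMM factors of 0.956 to 1.07 in the age fits. Both comparisons share the adult sections. The scripts were tested on simulated counts with known changes. Alternatives were other scaling, filters, equal depth, DESeq2 1.42.0, core spots, zones from marker panels, a replicate block and leaving out each section, and 2 were added after seeing the data (fiber tract clusters alone, and the count of induced genes under each alternative).

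Genes named are the members, up to 3 genes per pathway list and comparison called in most zones, and the 3 genes most like each member. Coordinates are from GENCODE vM21, and promoters from RefSeq on GRCm38.p6, where 5 of 6 members had a window. Values of 1 gene are not reported here.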

Additional observations from a re-analysis of the deposited data

Results flagged for a closer look

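For 6 gene and comparison pairs the age difference itself differed between the 6 zones by the interaction test in edgeR with the section as a block. In P21 versus adult this was Nr3c2 (adjusted p = 0.00462), with log2 differences from -0.92 in the TH to -0.29 in the STR. In aged versus adult these were Sgk1 (adjusted p = 5.18e-10), from 0.58 in the HP to 2.70 in the FT, and Fkbp5 (adjusted p = 4.22e-05), from 0.59 in the HP to 1.70 in the FT. Nr3c2 (adjusted p = 0.000217) ran from -0.17 in the FT to 0.43 in the HP, Errfi1 (adjusted p = 0.00334) from -0.03 in the STR to 0.64 in the HP, and Nr3c1 (adjusted p = 0.00985) from -0.83 in the HP to -0.23 in the CTX. An interaction was also found for 47.8% of all genes in aged versus adult and for 13.6% in P21 versus adult. Slide version and probe design cannot be told apart from age in any of the aged values.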

How the results depend on the processing

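No called result reversed under any alternative that was run. The count of member pairs called over the 6 zones in P21 versus adult was 3 and ran from 2 to 5 when 1 section was left out, the 5 without adult replicate 2. The count of zone differences was 8 and became 13 with core spots, those whose neighbours lay in the same zone. The interaction count in P21 versus adult was 1, became 3 without TMM factors and 2 with zones taken from marker panels, and ran from 0 to 6 when 1 section was left out. In aged versus adult it was 5, and 3 without adult replicate 1. The induced genes had 77 higher pairs, with 65 to 89 over all alternatives. The 89 came with filterByExpr as the only filter, where 19 of these genes were tested in each zone. Over all genes that filter gave 2481 higher and 1667 lower in the FT, next to 1402 and 1584 in the main fit. In the HP it gave 805 higher and 815 lower. In whole sections it gave 4301 higher and 847 lower in aged versus adult, next to 421 and 596 in the main fit. With no filter at all, aged versus adult gave 5289 higher and 914 lower in whole sections, 2416 and 799 in the CTX and 5815 and 2140 in the FT. Genes of low count were thus called higher in aged sections far more often than lower. The causes were not tested. With the replicate number as a block the counts of members were the same in whole sections (1 and 2) and over the zones (3 and 14), Fkbp5 in CA3 came under the fold threshold (0.58), and the induced genes had 76 pairs. Same-numbered sections correlated in their deviations at 0.187, -0.170 and -0.442, so the numbers were not taken as pairs. Without TMM factors the whole-section median of all genes in aged versus adult moved by 0.108 on the log2 scale, and the split of calls from 421 higher and 596 lower to 684 and 322, while no called member changed direction. In the FT the P21 split moved from 604 higher and 442 lower to 476 and 647. Of the single gene values, 28 of those that left out a section lost a call and 24 gained one. The other 992 were unchanged, which includes values called in neither fit. Under the other alternatives 20 lost a call, 21 gained one and 1309 were unchanged, again with those called in neither fit. The unchanged numbers are therefore not numbers of calls kept. In fits that left 1 section in a group, that section was assumed to vary like the others. DESeq2 and the block were not run for zone differences, and core spots and marker panels gave no layers. Zone values rest on 57 UMIs of a member or more and layer values on 19 or more, and these numbers limit the precision.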
